A study of Mus musculus with 8 samples.

Results

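Cells make cholesterol from acetyl-CoA through the mevalonate pathway, move it between membranes with carrier proteins, release it from lysosomes and store it as esters. The transcripts of 32 genes for these steps were followed here, out of 41730 gene rows, chosen by symbol from the enzymes of the mevalonate pathway (5 genes), the isoprenoid branch (3), the squalene and lanosterol steps (3) and the sterol branch after lanosterol (9), and from the START carriers and sterol esterification (3), lysosomal release (3) and the OSBP family of lipid transfer proteins (6). The first 20 are called synthesis genes and the other 12 transport and storage genes. Naive mouse CD8+ T cells had been isolated with magnetic beads and kept in culture for 24 h, either in 2 µM RGX-104, which activates the liver X receptors (LXR), or in the solvent DMSO. Each group held 4 libraries of 3' end mRNA sequencing, numbered 1 to 4 for DMSO and 5 to 8 for RGX-104 as in the labels. The purification and culture conditions described were the same for both groups, and mouse strain, age and sex are not stated in the labels. The labels do not tie libraries to animals or cultures, so the replicate spread behind each p may be technical only.

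Sterol supply is set by opposed nuclear programs. When membrane cholesterol is low, the transcription factor SREBP2, the product of Srebf2, moves to the nucleus and drives the synthesis enzymes, often beside the factor NF-Y bound at a CCAAT box and Sp1 bound at a GC box. When oxidised sterols are high, LXR drives cholesterol export and, through Srebf1, fatty acid synthesis. T cells need sterols for new membrane when they begin to divide, and resting naive cells keep synthesis low.

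None of the 31 genes that could be tested was called higher or lower (edgeR quasi-likelihood test, adjusted p = 1.00 for each). The test cannot show that none changed. The interval of the log2 fold change reached past a 2-fold increase for 18 of them and past a 2-fold decrease for 9. The same test over the whole table, 10037 genes, called 10 higher (0.0996%) and 1 lower (0.00996%) with RGX-104. DESeq2 and limma-voom also called 0 of the 31, with 0.199% and 0.11% of all genes called higher and 0.13% and 0.0299% lower. At an unadjusted edgeR p under 0.05 there were 2 sterol genes higher, Soat1 and Osbpl9, and 0 lower, against 1.98% and 1.82% of all genes. At that level DESeq2 had 6 of the 31 higher and 1 lower, against 3.19% and 3.57% of all genes. The 6 were Soat1, Osbpl9, Fdft1, Sc5d, Nsdhl and Cyp51, and the 1 lower was Ggps1. With limma-voom 2 were higher, Soat1 and Dhcr7, and 0 lower (3.99% and 2.66% of all genes), so the count depended on the tool. In the same fit the LXR reference targets rose, with log2 fold changes of 5.68 ± 0.65 (SE) for Abca1, 3.36 ± 0.29 for Abcg1, 2.39 ± 0.16 for Srebf1 and 1.66 ± 0.18 for Mylip (edgeR adjusted p from 3.45e-08 to 8.64e-05).

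The enzymes of synthesis and the genes of transport lay differently around 0. Of 19 tested synthesis genes 15 lay above 0 on the log2 scale and 4 below (median 0.73). Of 12 transport and storage genes 6 were above and 6 below, with a median of 0.036. The median over all tested genes was 0.0090, with 50.9% above 0. No difference between the 2 groups of genes was tested, and they also differed in level. The tested genes with the lowest levels were mostly synthesis genes. The median SE was 0.61 for synthesis genes against 0.35 for transport and storage genes. The synthesis genes with the highest levels, Acat2, Ggps1, Lbr and Ebp, had log2 fold changes of 0.16, -0.37, 0.045 and 0.094.

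The total counts lay between 16196217 and 28287445 per library. DMSO replicates 1 to 3 had 9772 to 10194 genes with at least 1 count, against 10908 in DMSO replicate 4 and 10442 to 10990 in RGX-104. The zeros among low genes fit far fewer independent molecules than counts. Under Poisson sampling they correspond to 182352 to 344257 apparent molecules per library, so that 1 molecule stood for 2.90 to 5.48 CPM (a gene's share of the counts in its library, on a common scale). A mean of under 5 such molecules per library was found for 9 of the 32 genes. CD8 T cell markers summed to 3471 to 3715 CPM with DMSO and 3552 to 3900.3 CPM with RGX-104, although Cd2 had no count. B cell markers summed to 43.7 to 194 and 104 to 174 CPM, and CD4 or regulatory T cell markers to 11.5 to 19.8 and 5.77 to 14.8 CPM. Macrophage markers summed to 6.24 to 30.9 and 8.06 to 17.9 CPM, dendritic cell markers to at most 7.11 and 6.24 CPM, natural killer cell markers to at most 10.96 and 4.35 CPM, neutrophil markers to at most 34.7 and 11.5 CPM and erythroid markers to at most 38.8 and 14.3 CPM. Stromal and endothelial markers, nearly all of them Pecam1, which T cells also express, summed to 63.8 to 124 and 65.4 to 118 CPM. Mertk, Fcgr1, Itgax, Xcr1, Clec9a, Ncr1, Klra8, Ly6g, Mpo, Elane, Alas2, Cdh5 and Kdr had no count in any library.

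The starts of most of these genes have a sequence feature in common. The CCAAT and GC boxes were searched as known partners of SREBP2 at synthesis enzymes. Their presence here is therefore not an independent finding. RefSeq promoters on GRCm38.p6 were found for 27 of the 32 genes, and the 250 bases before the annotated start were searched on both strands, with the best of several starts taken for a gene. The number of starts per gene was not matched between the sets compared. The letters CCAAT were present in 25 of 27 genes (92.6%), against 40.7% of 7510 tested protein-coding genes, and at least 2 copies in 15 (55.6%), against 15.7%. Acat2 and Osbpl8 had no match. The GC box GGGCGG was present in 22 genes (81.5%, against 65.4%). The sterol regulatory element, written as TCACNCCAC, was found in Hmgcs1 and Stard3 (7.41%, against 1.15%), so that share rests on 2 genes. Only this spelling was searched, and Fdps, Fdft1, Sqle, Stard4 and Npc1 had no promoter entry. The other genes may therefore hold elements of another spelling or position. The LXR element, AGGTCA repeated in the same direction after a spacer of 4 bases, was found in none of the 27 genes and in none of the 7510. This exact spelling therefore cannot tell the sets apart. A match describes letters only, and no occupancy was measured. The CCAAT and sterol regulatory element matches do not overlap in the windows printed here.

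The following windows are 250 bases up to the start, written 5' to 3' along the gene, with CCAAT boxes (ATTGG on the other strand) and sterol regulatory elements in capitals. Hmgcs1 and Stard3 are shown as the genes with a match to TCACNCCAC. Msmo1 is an example with 3 CCAAT boxes, where Mvk and Osbp had 5 each. Nsdhl is shown because its groups did not overlap, and Soat1 because it had the smallest p.
Hmgcs1 (chr13:119690101-119690350, plus strand): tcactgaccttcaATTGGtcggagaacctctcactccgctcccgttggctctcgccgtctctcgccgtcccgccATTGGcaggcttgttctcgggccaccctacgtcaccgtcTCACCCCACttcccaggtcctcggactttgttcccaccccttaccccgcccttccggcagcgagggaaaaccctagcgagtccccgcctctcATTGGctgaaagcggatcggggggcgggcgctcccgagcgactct
Stard3 (chr11:98358118-98358367, plus strand): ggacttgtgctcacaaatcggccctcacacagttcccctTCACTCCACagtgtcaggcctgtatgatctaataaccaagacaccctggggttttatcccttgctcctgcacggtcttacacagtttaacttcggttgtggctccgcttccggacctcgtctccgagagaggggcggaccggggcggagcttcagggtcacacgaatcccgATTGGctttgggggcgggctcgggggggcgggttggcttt
Msmo1 (chr8:64733579-64733828, minus strand): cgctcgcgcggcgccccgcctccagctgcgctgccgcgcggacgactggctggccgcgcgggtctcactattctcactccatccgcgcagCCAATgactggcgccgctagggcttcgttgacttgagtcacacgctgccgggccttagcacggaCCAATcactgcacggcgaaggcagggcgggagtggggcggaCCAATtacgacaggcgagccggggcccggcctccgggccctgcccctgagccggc
Nsdhl (chrX:72918271-72918520, plus strand): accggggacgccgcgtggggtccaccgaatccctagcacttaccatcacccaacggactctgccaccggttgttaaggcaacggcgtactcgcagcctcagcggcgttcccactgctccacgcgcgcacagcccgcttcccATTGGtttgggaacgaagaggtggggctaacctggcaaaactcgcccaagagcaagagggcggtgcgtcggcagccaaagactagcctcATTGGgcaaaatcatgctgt
Soat1 (chr1:156474329-156474578, minus strand): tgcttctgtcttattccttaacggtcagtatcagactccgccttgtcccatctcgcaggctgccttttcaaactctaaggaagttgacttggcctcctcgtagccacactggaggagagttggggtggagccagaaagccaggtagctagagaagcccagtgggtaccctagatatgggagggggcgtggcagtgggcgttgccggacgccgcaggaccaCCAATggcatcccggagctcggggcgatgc
In Hmgcs1 the sterol regulatory element TCACCCCAC begins 137 bases before the start, between CCAAT boxes that begin 176 and 45 bases before it. In Stard3 the element TCACTCCAC begins 211 bases before the start and the single CCAAT box 40 bases before it. The boxes of Nsdhl begin 109 and 20 bases before the start, and that of Soat1 30 bases before it. These 5 genes share the box, and their log2 fold changes ran from -0.27 (Stard3) to 1.25 (Nsdhl) with none called.

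**Figure D1:**
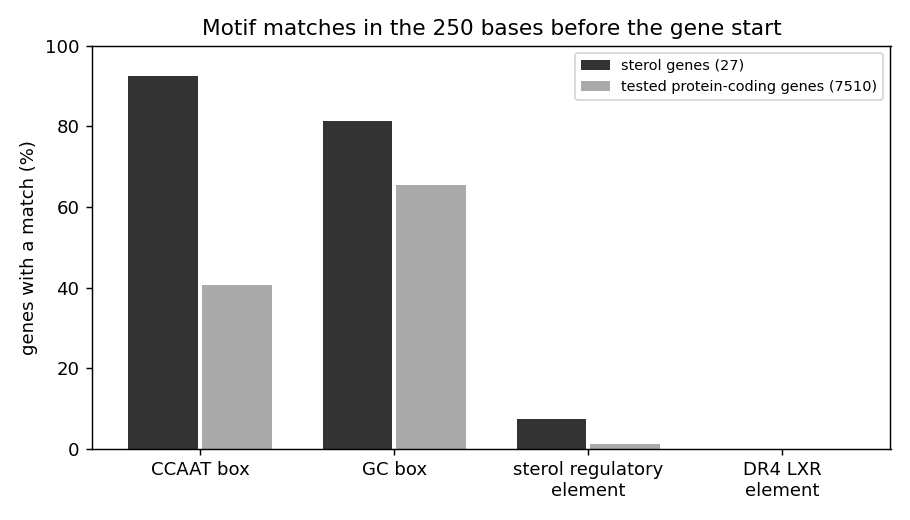
Share of genes (%) with at least 1 match of each motif in the 250 bases before the start, for 27 sterol genes (black bars) and 7510 tested protein-coding genes (grey bars). The CCAAT box stands at 92.6% against 40.7%, and the LXR element was found in neither set.

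**Figure D2:**
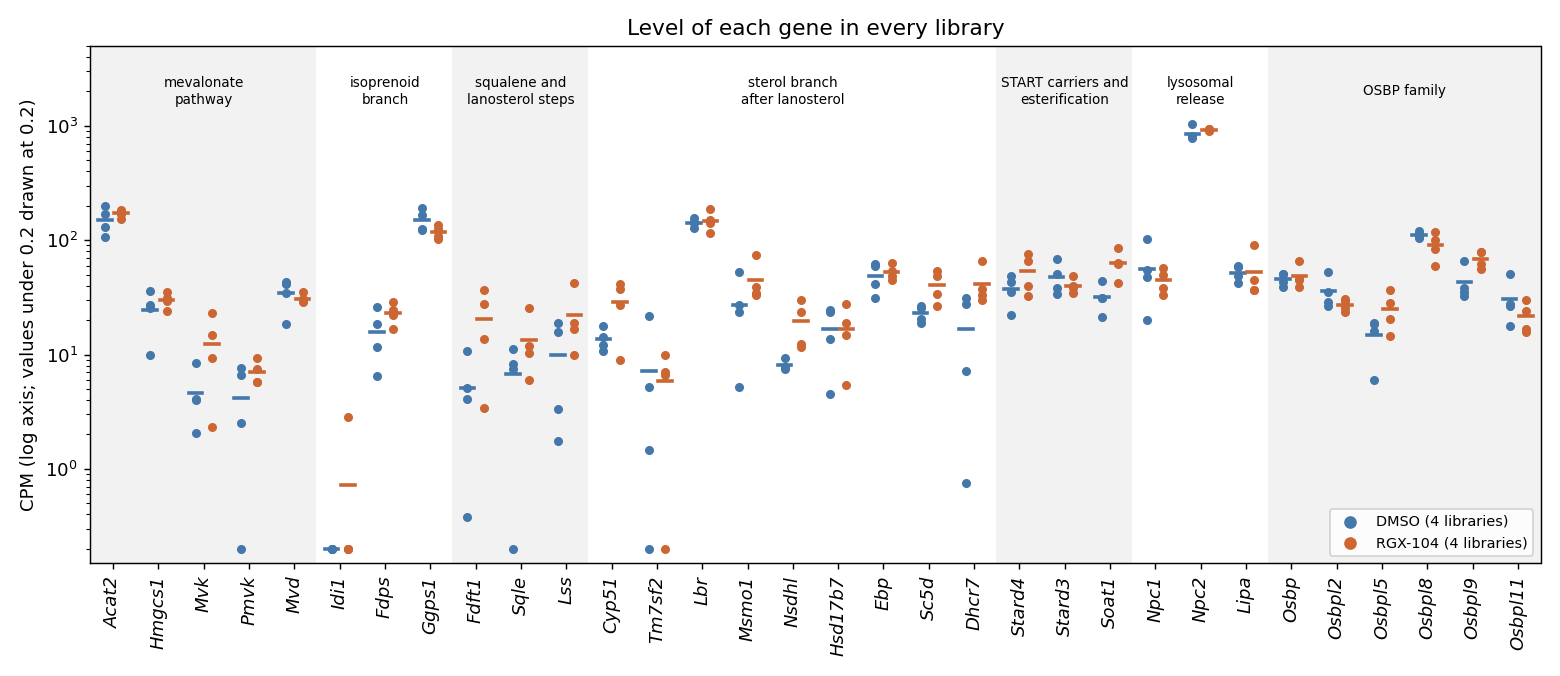
Level of each of the 32 genes in CPM (log axis) in 4 DMSO libraries (blue points) and 4 RGX-104 libraries (orange points), with short lines at the group means and values under 0.2 drawn at 0.2. In 31 genes the groups overlap, and the points spread most for genes under 20 CPM.

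The mevalonate pathway builds the isoprenoid unit from acetyl-CoA. Acat2, the cytosolic thiolase that joins acetyl-CoA units at its entry, stood at 169, 131, 107 and 198 CPM with DMSO and 152, 169.8, 181 and 185 CPM with RGX-104. The RGX-104 values lay within the DMSO range, which was set by DMSO replicates 3 and 4. Its log2 fold change was 0.16 ± 0.20 (95% interval -0.26 to 0.58). Hmgcs1, the cytosolic HMG-CoA synthase, stood at 9.97, 25.8, 27.3 and 35.9 CPM with DMSO and 29.3, 23.8, 31.2 and 35.3 CPM with RGX-104. DMSO replicate 1 was low and the other 7 libraries overlapped, with a log2 fold change of 0.26 ± 0.48 that turned to -0.0076 without that library. Mvd, the decarboxylase that ends the pathway, stood at 34.8, 18.6, 41.7 and 43.2 CPM with DMSO and 30.4, 29.3, 35.2 and 28.7 CPM with RGX-104, with DMSO replicate 2 low and RGX-104 inside the DMSO range (-0.18 ± 0.40, from -0.39 to -0.049 with 1 library left out). The kinases were low. Mvk, mevalonate kinase, ranged over 2.05 to 8.50 CPM with DMSO and 2.32 to 22.9 CPM with RGX-104, and Pmvk, the next kinase, over 0 to 7.60 CPM with DMSO and 5.72 to 9.38 CPM with RGX-104, with a zero in DMSO replicate 2. The log2 fold change was 1.39 ± 1.19 for Mvk and 0.73 ± 1.67 for Pmvk (95% interval -2.77 to 4.24), with overlapping groups in both. Mvk was at 0.90 without RGX-104 replicate 6, and Pmvk at 0.31 without DMSO replicate 2 and 1.17 without DMSO replicate 3. Of the 5 genes 4 were above 0 and 1 below, with a median of 0.26 that was 0.50 without DMSO replicate 4 and 0.17 without RGX-104 replicate 8. Against DMSO replicate 4 alone the median was -0.24 with 2 of 5 above 0, and adjusting for genes detected it was -0.091 with 1 of 5 above 0.

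In the isoprenoid branch 1 of the 2 tested genes was above 0 and 1 below. Ggps1, which makes geranylgeranyl diphosphate for the anchoring of small GTPases, stood at 126, 122, 190.4 and 168 CPM with DMSO and 126, 108, 137 and 102 CPM with RGX-104. DMSO replicates 3 and 4 were above every RGX-104 library, DMSO replicates 1 and 2 were inside their range, and the log2 fold change was -0.37 ± 0.20 (95% interval -0.79 to 0.048). Ggps1 shares 257 exonic bases with Arid4b at its 5' end, on the opposite strand. Fdps, the farnesyl diphosphate synthase at the fork to sterols, ranged over 6.46 to 26.00 CPM with DMSO and 16.8 to 28.5 CPM with RGX-104 (0.53 ± 0.61, 0.27 without DMSO replicate 2 and 0.90 without DMSO replicate 4). Idi1, the isomerase before it, had no count in any DMSO library and stood at 0, 0, 2.84 and 0.0594 CPM with RGX-104. It was not tested, and 3 counts over the DMSO group would correspond to 0.0381 CPM, for counting error of independent reads only. The highest Idi1 value was less than 1 apparent molecule.

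The squalene and lanosterol steps commit carbon to sterols, and all 3 genes there had higher means in RGX-104 without passing the test. Fdft1, squalene synthase, ranged over 0.377 to 10.8 CPM with DMSO and 3.42 to 36.6 CPM with RGX-104. RGX-104 replicates 5, 7 and 8 were above every DMSO library and replicate 6 was among them, and the log2 fold change was 1.99 ± 1.02 (95% interval -0.16 to 4.13). Fdft1 shares 774 exonic bases at its 3' end with Ctsb on the opposite strand, which stood at 102 ± 9.12 CPM with DMSO and 106 ± 15.2 CPM with RGX-104, and without a stated strand setting their reads cannot be told apart. Sqle, squalene epoxidase, ranged over 0 to 11.3 CPM with DMSO and 6.05 to 25.3 CPM with RGX-104 (0.96 ± 1.25), with a zero in DMSO replicate 2. Lss, which closes the ring to lanosterol, ranged over 1.77 to 18.9 CPM with DMSO and 9.94 to 42.5 CPM with RGX-104 (1.14 ± 0.82). Without RGX-104 replicate 8 the log2 fold change of Lss was 0.59. That of Sqle was 0.44 without RGX-104 replicate 5, 0.54 without DMSO replicate 2 and 0.21 against DMSO replicate 4 alone. These genes averaged 2.77 to 4.42 apparent molecules per library, and summed they stood at 27.3, 19.3, 20.8 and 19.7 CPM with DMSO and at 72.0, 26.2, 58.3 and 66.4 CPM with RGX-104. RGX-104 replicate 6 was just under DMSO replicate 1 and the other 3 lay above all DMSO libraries. The median log2 fold change of 1.14 was 1.97 against DMSO replicate 4 alone, 1.73 adjusting for genes detected and 2.14 with limma-voom, and with 1 library left out it ran from 1.06 to 1.59. No test was made of the sum or the median, since the genes were chosen with earlier results of these data known.

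The branch after lanosterol removes methyl groups and shifts double bonds to give cholesterol. Of its 9 genes 7 were above 0 and 2 below, with a median log2 fold change of 0.73. That median was 0.38 without DMSO replicate 1 and 0.37 without RGX-104 replicate 6. Cyp51, the lanosterol demethylase, stood at 10.7, 17.7, 12.03 and 14.2 CPM with DMSO and 37.6, 26.9, 9.01 and 41.2 CPM with RGX-104. RGX-104 replicates 5, 6 and 8 lay above every DMSO library and replicate 7 below them all, with a log2 fold change of 1.05 ± 0.58 that ran from 0.82 to 1.35 with 1 library left out, highest without replicate 7. Cyp51 shares 166 exonic bases at its 3' end with Akap9 on the opposite strand, at 212 ± 35.9 CPM with DMSO and 194 ± 20.3 CPM with RGX-104. Msmo1, a methyl oxidase, stood at 5.24, 23.3, 52.5 and 26.9 CPM with DMSO and 32.9, 74.02, 34.2 and 39.02 CPM with RGX-104. RGX-104 replicate 6 was highest, DMSO replicate 1 lowest and the rest overlapped (0.73 ± 0.53). The Msmo1 value was 0.38 without DMSO replicate 1, 0.37 without RGX-104 replicate 6 and 1.26 without DMSO replicate 3.

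Nsdhl, a decarboxylating dehydrogenase of the same demethylation, ranged over 7.48 to 9.36 CPM with DMSO and 11.6 to 30.00 CPM with RGX-104. It was the only one of the 31 tested genes with all 4 RGX-104 libraries above all 4 DMSO libraries, which 2.2% of all tested genes showed (1.35% in the opposite direction, shown by none of the 31). Nsdhl averaged 3.75 apparent molecules per library, and its log2 fold change was 1.25 ± 0.76 (95% interval -0.35 to 2.84). The gene lies on chromosome X at 72918521 to 72958528 (GRCm38.p6).

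The last enzymes of the branch differed in how their libraries lay. Sc5d, the lathosterol desaturase, stood at 20.6, 26.7, 18.8 and 25.4 CPM with DMSO and 53.3, 26.6, 33.96 and 48.8 CPM with RGX-104. Only RGX-104 replicate 6 fell inside the DMSO range, just under DMSO replicate 2, and the log2 fold change was 0.81 ± 0.41 (95% interval -0.050 to 1.67). Dhcr7, the reductase that gives cholesterol from its immediate precursor, stood at 7.20, 0.753, 31.00 and 27.7 CPM with DMSO and 32.8, 37.2, 65.1 and 30.2 CPM with RGX-104. DMSO replicates 1 and 2 were far below the rest, while replicates 3 and 4 were close to the lowest RGX-104 libraries (1.29 ± 0.71). The Dhcr7 value was 0.45 adjusting for genes detected, 0.54 against DMSO replicate 4 alone and 2.02 with limma-voom. Ebp, the sterol isomerase, stood at 41.4, 59.5, 30.9 and 62.5 CPM with DMSO and 63.1, 44.7, 48.7 and 53.7 CPM with RGX-104, with overlapping groups (0.094 ± 0.33).

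Lbr, the lamin B receptor, is a sterol reductase of the inner nuclear membrane. It stood at 141, 143, 156 and 128 CPM with DMSO and 149, 186, 141 and 116 CPM with RGX-104, with a log2 fold change of 0.045 ± 0.19 (95% interval -0.35 to 0.44), an interval that excludes a 2-fold change in either direction. Tm7sf2, the other reductase of that step, ranged over 0 to 21.9 CPM with DMSO and 0 to 9.89 CPM with RGX-104 with a zero in each group, and it shares 532 exonic bases with Vps51 on the same strand. Its log2 fold change of -0.29 ± 1.81 was 1.39 without DMSO replicate 2 and -0.70 without DMSO replicate 1. Hsd17b7, a keto reductase, ranged over 4.52 to 24.5 CPM with DMSO and 5.37 to 27.4 CPM with RGX-104 (-0.0085 ± 0.73).

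Summed over the 20 synthesis genes, the level was 632, 657, 747 and 809 CPM with DMSO and 845, 853, 875 and 819 CPM with RGX-104. The groups did not overlap, but DMSO replicate 4, the DMSO library with the most genes detected, was close to RGX-104 replicate 8. The largest parts of the sum were Acat2, Lbr and Ggps1, with means of 162, 145 and 135 CPM over all libraries. Each of these had overlapping groups, so the sum does not show a separation along the whole pathway. How often sums of other genes separate was not examined. DMSO replicates 1 to 4 had 10047, 9772, 10194 and 10908 genes detected. The order of their sums was the same except that replicates 1 and 2 changed places. The median log2 fold change of the synthesis genes fell from 0.73 to 0.39 (14 of 20 above 0) against DMSO replicate 4 alone, where the median of all genes was 0.13, and to 0.45 (13 of 19) adjusting for genes detected. The part of detection in the sums was not tested.

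**Figure D3:**
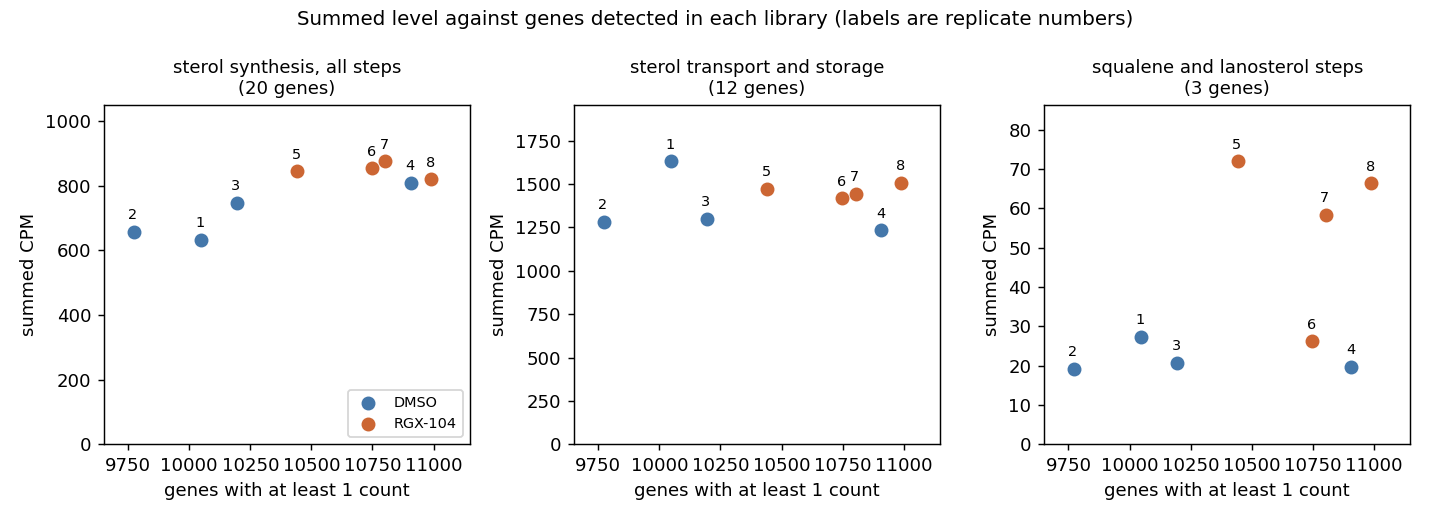
Summed CPM of the 20 synthesis genes, the 12 transport and storage genes and the 3 genes of the squalene and lanosterol steps (y axes, from 0) against the number of genes with at least 1 count (x axes), for each DMSO (blue) and RGX-104 (orange) library by replicate number. For synthesis, DMSO replicate 4 (809 CPM) lies beside RGX-104 replicate 8 (819 CPM), and for the 3 genes it stays at 19.7 CPM.

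Storage had the gene with the smallest p. Soat1, which esterifies cholesterol for lipid droplets, stood at 31.5, 43.8, 21.3 and 31.3 CPM with DMSO and 63.3, 61.5, 85.6 and 41.9 CPM with RGX-104. RGX-104 replicates 5, 6 and 7 were above every DMSO library, and replicate 8 was just under DMSO replicate 2. On the log2 scale it differed by 0.96 ± 0.35 (95% interval 0.24 to 1.69; adjusted p = 1.00 with edgeR, DESeq2 adjusted p = 0.255, limma-voom adjusted p = 0.735). Over the 14 alternatives the adjusted p of Soat1 ran from 0.255 to 1.00, and adjusting for genes detected the log2 fold change was 1.14. Soat1 lies on chromosome 1 at 156428108 to 156474328 (GRCm38.p6).

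The START proteins carry cholesterol through the cytosol or between late endosomes and other membranes. Stard4, a soluble carrier, stood at 42.98, 35.02, 21.97 and 48.6 CPM with DMSO and 40.2, 32.4, 76.1 and 65.9 CPM with RGX-104. RGX-104 replicates 7 and 8 were above all DMSO libraries and replicates 5 and 6 were among them (0.51 ± 0.38, 95% interval -0.28 to 1.30). The Stard4 value was 0.32 without DMSO replicate 3 and 0.29 without RGX-104 replicate 7. Stard3, a carrier anchored in late endosomes, stood at 50.95, 33.8, 67.96 and 38.2 CPM with DMSO and 39.7, 38.1, 34.3 and 48.2 CPM with RGX-104, with DMSO replicate 3 highest and RGX-104 inside the DMSO range (-0.27 ± 0.34).

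Lysosomal release showed no direction in common. Npc2, the soluble protein that takes cholesterol from the lysosomal lumen, was measured at 1032, 815, 782 and 797 CPM with DMSO and 936, 923, 939.9 and 901 CPM with RGX-104. DMSO replicate 1 was highest and the RGX-104 libraries lay between it and the other 3, with a spread of 1.92% (SD over mean) in RGX-104 and 13.7% in DMSO. The log2 fold change was 0.095 ± 0.11 (95% interval -0.14 to 0.33), the narrowest interval of the 31. Npc1, the membrane protein that receives cholesterol from Npc2, stood at 103, 55.03, 47.3 and 19.99 CPM with DMSO and 57.4, 38.1, 33.2 and 49.8 CPM with RGX-104. DMSO replicates 1 and 4 were the highest and lowest of all 8 libraries, and the log2 fold change of -0.35 ± 0.40 became 0.12 without DMSO replicate 1 and 1.13 against DMSO replicate 4 alone. Npc1 shares 511 exonic bases at its 3' end with Rmc1 on the opposite strand. Lipa, the acid lipase that frees cholesterol from esters, stood at 58.9, 48.3, 58.3 and 41.8 CPM with DMSO and 44.8, 36.9, 36.7 and 90.4 CPM with RGX-104, with RGX-104 replicate 8 far above the rest and a log2 fold change of -0.0041 ± 0.34.

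The OSBP family exchanges sterols and phosphoinositides at membrane contact sites. Osbpl9 had the other unadjusted p under 0.05, at 32.7, 35.3, 65.2 and 37.8 CPM with DMSO and 61.8, 79.6, 56.00 and 79.3 CPM with RGX-104. DMSO replicate 3 reached into the RGX-104 range and the other 3 DMSO libraries lay below it. Its log2 fold change of 0.68 ± 0.31 (95% interval 0.026 to 1.33, adjusted p = 1.00 with edgeR) ran from 0.57 to 0.94 with 1 library left out, highest without DMSO replicate 3. Osbpl9 (chromosome 4, 109061145 to 109202272, GRCm38.p6) shares 633 exonic bases at its 3' end with Nrd1 on the opposite strand, at 139.8 ± 31.8 CPM with DMSO and 150.0 ± 12.7 CPM with RGX-104.

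Osbpl8, a tether between the endoplasmic reticulum and the plasma membrane, stood at 116, 103, 119.7 and 106 CPM with DMSO and 99.7, 83.1, 59.3 and 118 CPM with RGX-104. RGX-104 replicates 5, 6 and 7 were below every DMSO library and replicate 8 was among them (-0.32 ± 0.23, 95% interval -0.80 to 0.16). Osbp, which exchanges cholesterol for phosphoinositide at the Golgi, stood at 43.04, 38.7, 50.2 and 50.8 CPM with DMSO and 65.2, 44.96, 38.8 and 45.8 CPM with RGX-104, with overlapping groups (0.076 ± 0.32). Osbpl2 stood at 52.8, 28.7, 35.03 and 26.8 CPM with DMSO and 25.6, 29.3, 30.6 and 23.5 CPM with RGX-104, with DMSO replicate 1 highest and the rest overlapping (-0.41 ± 0.40). Osbpl11, which acts at the Golgi and late endosomes, stood at 50.3, 27.8, 26.6 and 17.7 CPM with DMSO and 24.2, 30.00, 15.8 and 16.6 CPM with RGX-104, again with DMSO replicate 1 highest (-0.51 ± 0.49). Osbpl5 ranged over 6.04 to 18.8 CPM with DMSO and 14.6 to 36.8 CPM with RGX-104 (0.73 ± 0.59, and 0.47 without DMSO replicate 3). Of the 6 genes 3 were above 0 and 3 below.

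Summed over the 12 transport and storage genes, the level was 1631, 1281, 1302 and 1234 CPM with DMSO and 1473, 1418, 1443 and 1508 CPM with RGX-104, a sum made mostly of Npc2. DMSO replicate 1 lay above all RGX-104 libraries and the other 3 below them.

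**Figure D4:**
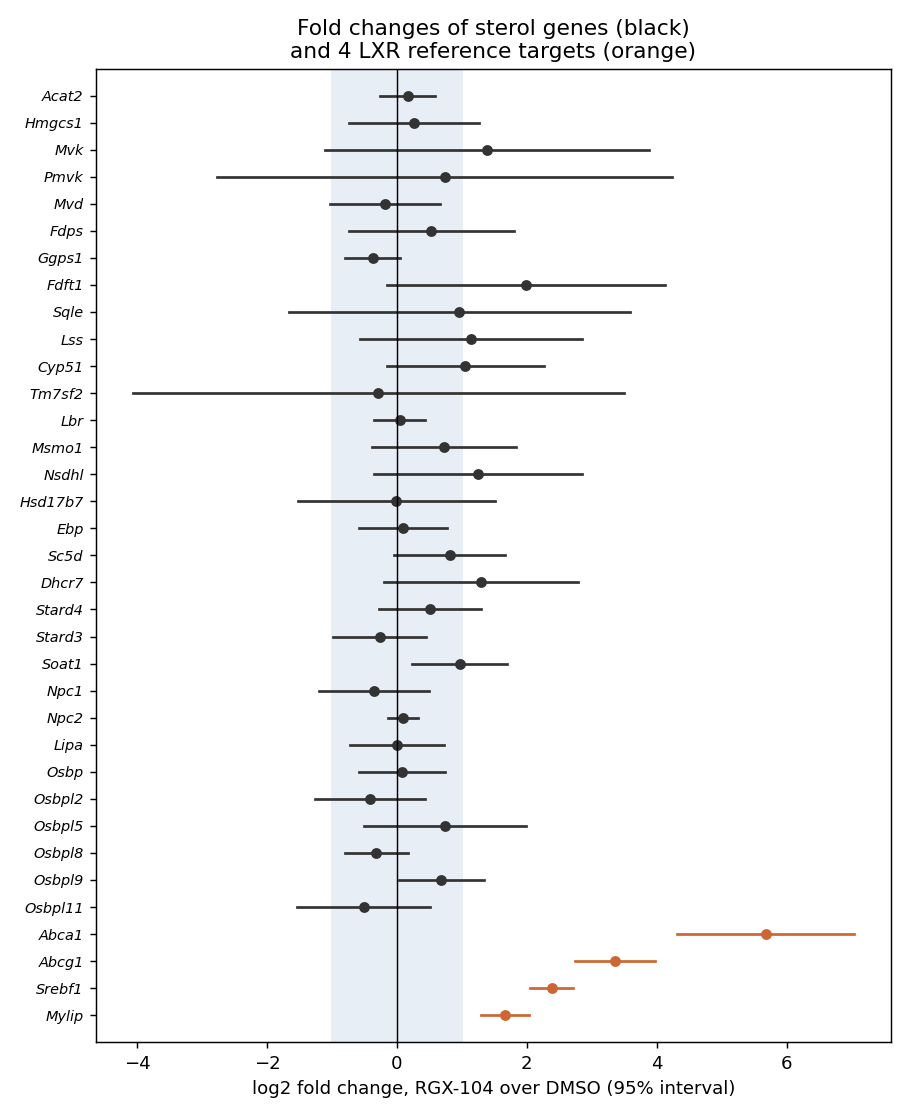
Log2 fold change of RGX-104 over DMSO (points) with 95% intervals (lines) for the 31 tested sterol genes (black) and 4 LXR reference targets (orange), with the range of less than 2-fold change shaded. Soat1 and Osbpl9 have intervals above 0 before adjustment, and the 4 reference targets lie from 1.66 to 5.68.

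How large a change could have gone unseen differed from gene to gene. The 95% interval lay within 2-fold in both directions for 9 of the 31 genes (29.0%), Acat2, Ggps1, Lbr, Ebp, Stard3, Npc2, Lipa, Osbp and Osbpl8, against 34.3% of all tested genes. For 18 genes the upper bound exceeded a 2-fold increase. Of these intervals the widest belonged to the low genes. Among the 11 genes with a mean under 20 CPM the median spread within DMSO was 64.8% of the mean, and among the 9 genes at 50 CPM or more it was 21.8%. The 10 tested genes under 20 CPM had a median log2 fold change of 0.85 with 8 above 0, the 12 genes at 20 to under 50 CPM 0.38 with 8 above 0, and the 9 genes at 50 CPM or more 0.045 with 5 above 0. Over all tested genes the medians at these levels were 0.028, -0.00401 and 0.00788.

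Genes around the pathway were counted in the same fit. Of 7 genes, Srebf2 and genes that control SREBP processing, 1 rose, 0 fell and 6 did not pass (0.0996% and 0.00996% of all genes), with 6 above 0. Rnf145, a membrane-bound E3 ubiquitin ligase, rose from 182, 176, 158 and 133 CPM with DMSO to 324, 300.2, 294 and 257 CPM with RGX-104 (0.84 ± 0.16 on the log2 scale, edgeR adjusted p = 0.0352). The groups did not overlap and DESeq2 and limma-voom made the same call, but it was lost in edgeR without any 1 of DMSO replicates 2, 3 and 4 or of the RGX-104 libraries (edgeR adjusted p from 0.0689 to 0.256), adjusting for genes detected (0.0519) and against DMSO replicate 4 alone (0.0698). The log2 fold change was 0.76 to 0.90 with 1 library left out, 1.05 adjusting for genes detected and 1.11 against DMSO replicate 4 alone. Srebf2 stood at 117, 185, 162 and 184 CPM with DMSO and 206, 252, 230.4 and 175 CPM with RGX-104, with DMSO replicates 2 and 4 inside the RGX-104 range (0.40 ± 0.18, edgeR adjusted p = 1.00). Of 14 genes that use isoprenoids 13 were tested and none passed by edgeR, DESeq2 or limma-voom, with 7 above 0. At an unadjusted p under 0.05 there were 0 by edgeR, 0 by DESeq2 and 3 by limma-voom, 2 higher and 1 lower, against 3.99% and 2.66% of all genes by that tool. Dhdds, which makes dolichol precursors, had the smallest p there, at 29.5, 6.19, 32.3 and 27.3 CPM with DMSO and 41.1, 51.8, 52.4 and 34.1 CPM with RGX-104 (0.89 ± 0.47). Its RGX-104 libraries all lay above its DMSO libraries, which 2.2% of all tested genes showed. Pggt1b, a subunit of geranylgeranyl transferase, had the next smallest p, at 35.4 ± 3.86 CPM with DMSO and 48.6 ± 9.62 CPM with RGX-104. Of 19 other genes of sterol transport and turnover 12 were tested and none passed by edgeR, DESeq2 or limma-voom, with 7 above 0 and 0 at an unadjusted p under 0.05 by any of them. Vapb, a contact site receptor, was at 108 ± 22.3 CPM with DMSO and 84.8 ± 18.6 CPM with RGX-104, and Gramd1a, a sterol carrier of the endoplasmic reticulum, at 363 ± 54.3 CPM with DMSO and 319 ± 58.8 CPM with RGX-104 (mean ± SD over 4 libraries).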

How the data were processed

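The 8 libraries (4 DMSO, 4 RGX-104) were made with a QuantSeq kit that reads transcript 3' ends, per the labels' protocols. The authors deposited unnormalized integer counts of reads for each gene symbol, per the file headers. The submitters' processing notes list STAR 2.7.8a, R 4.1.0, DESeq2 1.4 and GRCm38 but give no role to any. How reads were counted (tool, annotation, strand, molecular identifiers) is not given in the sources used here.

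Library names in the labels gave the groups. All genes were fitted with edgeR 4.0.16 under R 4.3.3: quasi-likelihood test, TMM, filterByExpr with a minimum count of 10, group as the only term, two-sided, Benjamini-Hochberg adjustment over 10037 genes, calls at an adjusted p under 0.05. The SE is the size of the log2 fold change over the square root of F, and 95% intervals rest on it. CPM are counts over the library total. The alternatives were DESeq2 size factors, no filter, DESeq2 1.42.0, limma-voom (limma 3.58.1), each library left out, the genes detected as a covariate, and DMSO replicate 4 alone. The functions were tested on simulated data. Apparent molecules per library are the Poisson sample size that yields its zeros for genes averaging 2 to 20 CPM elsewhere. Overlapping genes are from GENCODE on GRCm38, positions and promoters from RefSeq on GRCm38.p6. Genes averaging at least 20 CPM are given in every library and the rest by range. Of the surrounding lists, called genes and the 2 smallest p-values are named. The members, lists and motifs were chosen with earlier results of these data known.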

Additional observations from a re-analysis of the deposited data

Results flagged for a closer look

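A single library stood apart from its 3 replicates in 6 of 103 sets of 4 values, and about 5 (1 in 20) would be found by chance. Idi1 reached 2.84 CPM in RGX-104 replicate 7 while the others ran over 0 to 0.0594 CPM. Msmo1 reached 74.0 CPM in RGX-104 replicate 6 while the others ran over 32.9 to 39.0 CPM. Npc2 reached 1032 CPM in DMSO replicate 1 while the others ran over 782 to 815 CPM, and with it the summed transport and storage genes at 1631 CPM while the others ran over 1234 to 1302 CPM. Lipa reached 90.4 CPM in RGX-104 replicate 8 while the others ran over 36.7 to 44.8 CPM. Osbpl9 reached 65.2 CPM in DMSO replicate 3 while the others ran over 32.7 to 37.8 CPM.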

How the results depend on the processing

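No paired analysis was possible because the library numbers 1 to 8 are unique across the groups. No sterol gene was called under any of the 14 alternatives (smallest adjusted p = 0.255, Soat1 with DESeq2). Of the 31 tested genes 18 kept their direction in all alternatives run. Genes called higher and lower were 20 and 13 with DESeq2 and 6 higher with the covariate, and genes called lower were 4 without a filter and 3 with limma-voom, against 10 and 1; leaving out 1 library gave 7 to 11 higher and 1 to 3 lower. The median of the sterol genes was 0.38 without a filter, 0.38 with limma-voom and 0.15 with the covariate, against 0.26, and 0.17 to 0.50 with 1 library left out, highest without DMSO replicate 4. The cause was not tested. Signs turned with the covariate for Acat2 (-0.091), Hmgcs1 (-0.053), Pmvk (-0.23), Tm7sf2 (1.62) and Npc1 (0.54). Against DMSO replicate 4 alone, a group of 1 library assumed to vary like the others, they turned for Acat2 (-0.24), Hmgcs1 (-0.30), Fdps (-0.21), Tm7sf2 (1.95), Hsd17b7 (0.25), Ebp (-0.29), Stard3 (0.034), Npc1 (1.13), Lipa (0.29), Osbp (-0.095), Osbpl11 (0.26) and Vapb (0.075). With 1 library left out, Hmgcs1 ran from -0.00757 to 0.50, Tm7sf2 from -0.70 to 1.39, Lbr from -0.091 to 0.14, Hsd17b7 from -0.36 to 0.28, Ebp from -0.078 to 0.24, Npc1 from -0.63 to 0.12, Lipa from -0.41 to 0.13 and Osbp from -0.10 to 0.17.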
